A study of Mus musculus with 8 samples.

Results

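The genes described here are 10 Krüppel-like factors, Klf2, Klf3, Klf4, Klf6, Klf9, Klf10, Klf11, Klf12, Klf13 and Klf15, taken by gene symbol from a table of 55487 mouse genes. All 10 were found, and all 10 were among the 13312 genes with enough reads to be tested. Their transcripts were counted by bulk sequencing of poly(A) RNA from mouse liver. All animals were C57Bl/6J males, of a common inbred strain, and were about 10 weeks old. The control group of 4 libraries came from mice given water, and the sorbate group of 4 libraries from mice given 17 mg of potassium sorbate by oral gavage. Both groups were taken 4 hours later, and the labels name no genetic change, other agent or pooling of animals in either. Potassium sorbate, a food preservative, is the potassium salt of sorbic acid. The comparison asks which Krüppel-like factor transcripts differ in liver between sorbate and water. Whether every library comes from its own mouse is not stated in the labels, and the p-values then measure only how far these libraries spread, which may be technical.

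Krüppel-like factors are transcription factors that bind GC-rich and CACCC-containing DNA through zinc fingers at the end of the protein, and the rest of each protein decides whether a bound gene is activated or repressed. Klf2, Klf4 and Klf6 belong to a subgroup that mostly activates and works with acetyltransferases, Klf3 and Klf12 to a subgroup of repressors that recruit the corepressor CtBP, and Klf9, Klf10, Klf11 and Klf13 to a subgroup that recruits the corepressor SIN3A. Klf15 stands outside these subgroups. In liver, Klf15 is known for its part in amino acid catabolism and glucose production, Klf9 is induced by glucocorticoids, and Klf10 is expressed with a daily rhythm.

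The libraries held from 15773932 to 25844731 counts. On the first principal component of all tested genes, which held 53.6% of the variance, control 2 scored 15.4 while the other controls scored −49.1 to −42.1 and the sorbate libraries 21.9 to 37.8. Control 2 thus stands apart from the other controls, and counts that change without it are given both ways. Without control 2, 15.1% of the tested genes were called higher and 14.1% lower, which is the background for all counts made without it. With all 8 libraries, 6.14% were called higher and 6.3% lower. Without any 1 of the other 7 libraries, 2.46% to 4.1% were called higher and 2.64% to 4.23% lower. With a covariate for hidden variation added, a surrogate variable, the shares were 2.43% and 2.26%. Many genes called on all 8 libraries were therefore not called at these settings. Of the 10 members, 8 had their highest or lowest control value in control 2, and 67.9% of all tested genes did. Values are given as CPM, read counts relative to library sizes scaled by TMM factors. The hepatocyte marker Alb, which encodes albumin, had a control mean of 51030 CPM and a sorbate mean of 61990 CPM. Of the 5 hepatocyte markers 0 were called changed by edgeR, with 1, Cps1, at p under 0.05 before adjustment and called higher by DESeq2 and by edgeR without control 2.

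The zinc-finger coding stretches of the close relatives Klf10 and Klf11 are shown because Klf10 was called and Klf11 was not. Whether their responses differ was not tested. Both log2 fold changes were positive, and their 95% intervals overlap (0.89 to 1.57 and −0.14 to 1.18). They are read from GENCODE vM21 transcripts on the GRCm38 build, 5′ to 3′, from the first zinc-binding cysteine codon to the last histidine codon. The 12 codons for zinc-binding cysteines and histidines are in capitals.
Klf10: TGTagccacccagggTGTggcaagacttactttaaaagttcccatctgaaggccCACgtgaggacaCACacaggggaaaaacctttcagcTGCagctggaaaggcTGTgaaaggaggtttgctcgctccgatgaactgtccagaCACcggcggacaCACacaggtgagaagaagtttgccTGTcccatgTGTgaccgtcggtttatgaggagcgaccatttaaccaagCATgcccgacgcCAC
Klf11: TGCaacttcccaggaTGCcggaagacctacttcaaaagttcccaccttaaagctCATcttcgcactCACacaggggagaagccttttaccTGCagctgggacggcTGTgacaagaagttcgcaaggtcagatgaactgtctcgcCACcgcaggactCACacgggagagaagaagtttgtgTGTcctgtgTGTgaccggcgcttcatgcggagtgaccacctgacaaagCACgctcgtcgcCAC
This stretch of 243 bases was found in all 10 members. Klf10 and Klf11 were identical at 185 of its bases (76.1%), the second highest share among the pairs after 78.2% for Klf2 with Klf4 and for Klf3 with Klf12. The longest run of identical bases between Klf10 and Klf11 within it was 13. Across whole transcripts, no run of 50 bases of Klf2, Klf6, Klf9, Klf10, Klf11 or Klf15 occurred on either strand in a transcript of another gene. Such runs made up 5.35% of those in Klf12, 3.48% in Klf3, 0.26% in Klf4 and 0.15% in Klf13. Reads from related members could therefore be told apart at a read length of 50 bases for most of each transcript. The read length of these libraries is not given in the sources used here.

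Promoter windows of 300 bases, from 250 before to 50 after the start site, were available from RefSeq (GRCm38.p6) for 9 of the 10 members. Klf10 had no entry. The window of Klf12 (chr14:100149747-100150046, minus strand) lies inside the gene span given below and not at its 5′ end. Its motifs therefore describe an internal start site. The window of Klf15 (chr6:90462326-90462625, plus strand) is shown because it holds 3 copies of the E-box CACGTG, in capitals, the sequence bound by the clock activators CLOCK and BMAL1 among other factors.
Klf15: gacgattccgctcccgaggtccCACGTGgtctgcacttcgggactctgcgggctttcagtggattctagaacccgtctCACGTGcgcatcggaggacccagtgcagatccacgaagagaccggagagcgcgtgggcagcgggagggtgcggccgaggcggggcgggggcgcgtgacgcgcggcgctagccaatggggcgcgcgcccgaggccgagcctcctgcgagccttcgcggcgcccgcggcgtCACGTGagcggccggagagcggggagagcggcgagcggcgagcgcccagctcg
The E-box was found once each in the windows of Klf4, Klf6 and Klf11, shown here with 12 bases on either side.
Klf4 (chr4:55532640-55532669, minus strand): cgcccccgccccCACGTGcgcggagtttgt
Klf6 (chr13:5861434-5861463, plus strand): ctccaagctggtCACGTGgggggagaaggg
Klf11 (chr12:24651145-24651174, plus strand): cccggaccaaaaCACGTGccgccgcccgcc
Of 32817 RefSeq windows of the same length, 7.15% hold CACGTG, which reads the same on both strands. The GC box GGGCGG, searched on both strands, was in the windows of 7 of the 9 members, beside 35.6% of all windows, and the sequence CACCC in 6 of the 9, beside 57.5%. Neither of these letter strings contains the other, on either strand. The D-box TTATGTAA (0.935% of all windows) and the cyclic AMP element TGACGTCA (1.79%) were in none of the 9. A match describes letters in a window and shows no binding.

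Of the 10 members, Klf10 rose with sorbate and none fell. It was the only member called, where 6.14% of all tested genes were called higher and 6.3% lower (quasi-likelihood test of edgeR, p-values adjusted over all genes by Benjamini-Hochberg, threshold 0.05), so a count of 1 in 10 is near the background. Before adjustment, 3 members had p under 0.05, namely Klf10, Klf13 and Klf15, all with higher means under sorbate, beside 29.5% of all tested genes. DESeq2 also called Klf10 alone. Log2 fold changes were positive for 8 members and negative for 2, and their median was 0.17, beside −0.02 over all tested genes. Leaving out control 2 gave 3 calls, Klf9, Klf10 and Klf15, all higher, beside 15.1% of all tested genes called higher at that setting. Leaving out control 1 gave 2, Klf10 and Klf13, beside 3.56%. With library size alone in place of TMM scaling, the median of all genes moved from −0.02 to 0.11, the calls over all genes were split into 1300 higher and 550 lower in place of 818 and 838, and Klf13 joined Klf10 among the calls, beside 9.77% of all tested genes called higher.

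**Figure D1:**
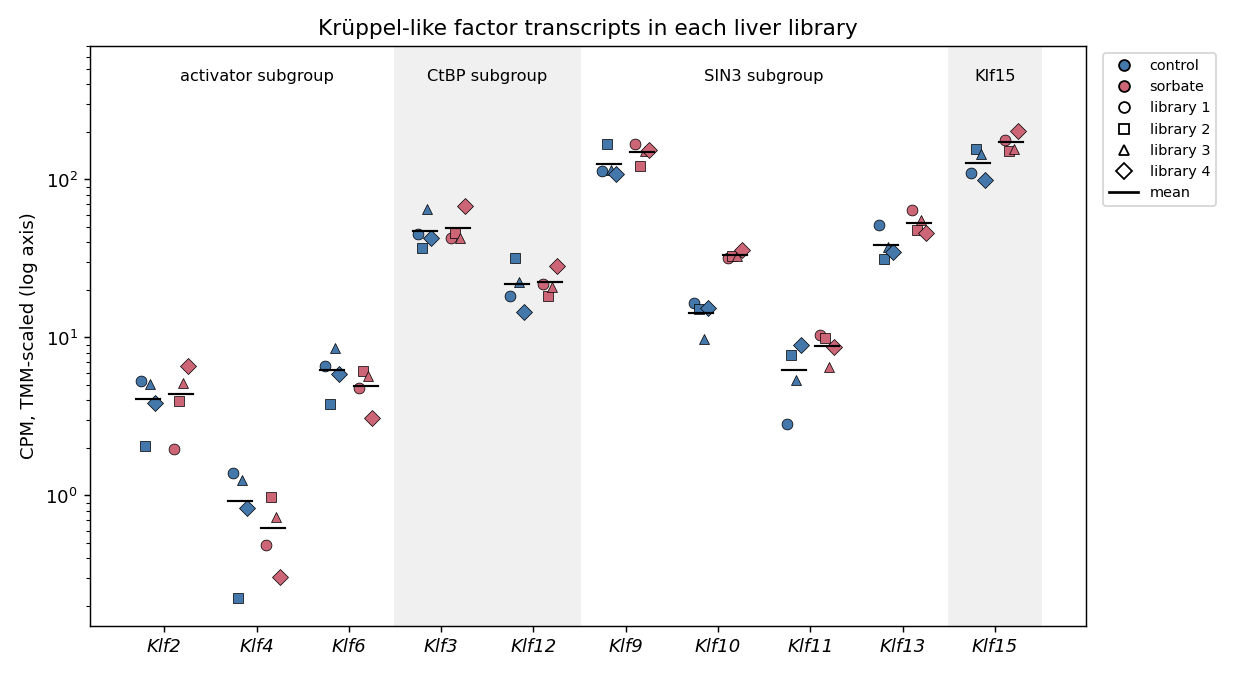
Each point is the CPM of a member in 1 liver library on a log axis, control in blue and sorbate in red, with the marker shape giving the library number and the black bar the group mean. Klf10 alone shows no overlap between the groups, with controls at 9.72 to 16.6 CPM and sorbate libraries at 31.8 to 35.7 CPM.

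Klf10 (ENSMUSG00000037465, GRCm38 chr15:38291463-38300706, minus strand) encodes a repressor also known as TGF-beta-inducible early gene product. Its level was 16.6, 15.2, 9.72 and 15.4 CPM in controls 1 to 4 and 31.8, 33.0, 32.7 and 35.7 CPM in sorbate libraries 1 to 4. All sorbate libraries lay above all controls, and control 3 was the lowest of the 8. The groups did not overlap in Klf10 alone of the 10 members, where 17.7% of all tested genes showed no overlap. Group means were 14.2 ± 3.06 CPM for control and 33.3 ± 1.67 CPM for sorbate (SD, n = 4 per group), a 2.34-fold rise with a 95% interval from 1.85 to 2.96 (log2 fold change 1.23, SE 0.15, edgeR adjusted p = 0.0016). By p it ranked 66 of 13312 genes. An exact permutation test of the log2 values, two-sided over 70 arrangements, gave p = 0.0286, the smallest it can give. The coefficient of variation was 21.5% in the controls and 5.03% with sorbate. Control 2 lay at 15.2 CPM within the other controls, and without it the log2 fold change was 1.27. Over the 8 leave-outs the log2 fold change ran from 1.08, without control 3, to 1.31, without control 1, with adjusted p up to 0.0081. The raw counts behind these values sum to 4011 over the 8 libraries.

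The other members of the SIN3A-binding subgroup did not pass the threshold. Klf13 (chr7:63886351-63938915), a factor first described in lymphocytes, stood at 51.6, 31.2, 37.2 and 34.7 CPM in the controls and 64.0, 47.7, 55.7 and 45.9 CPM with sorbate. Control 1 lay within the sorbate range and the other controls below it. Its log2 fold change was 0.46 (SE 0.17, 95% interval 0.09 to 0.83, adjusted p = 0.0952), on means of 38.7 ± 8.98 and 53.3 ± 8.31 CPM (SD, n = 4). Without control 1 it was 0.63 with adjusted p = 0.030, and with library size alone 0.59 with adjusted p = 0.0368. On the strand opposite to Klf13, 2 genes lie within its span, Gm27252 with 768 and E030018B13Rik with 754 counts over the 8 libraries, but they share no exon bases with it.

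Klf9 (chr19:23141226-23168134), a glucocorticoid-induced repressor, stood at 113, 167, 116 and 108 CPM in the controls and 168, 121, 152 and 153 CPM with sorbate. Control 2 was far above the other controls and level with the highest sorbate library, and sorbate 2 was the lowest of its group. The log2 fold change was 0.24 (SE 0.16, 95% interval −0.12 to 0.59, adjusted p = 0.355). Without control 2 it was 0.41 (SE 0.12) with adjusted p = 0.0263, and with limma-voom and sample quality weights on all 8 libraries 0.36 with adjusted p = 0.0427. The surrogate variable, a covariate for hidden variation in which control 2 had the highest value (0.479), correlated with the group (r = 0.579). It can therefore take up part of the difference between sorbate and water, wherever it is used here. With it, the log2 fold change of Klf9 was −0.016. Klf11 (chr12:24651274-24662789), a glucose- and TGF-beta-responsive relative of Klf10, stood at 2.84, 7.71, 5.37 and 8.90 CPM in the controls and 10.3, 9.91, 6.54 and 8.76 CPM with sorbate. The groups overlapped, control 1 being the lowest. The log2 fold change was 0.52 (SE 0.30, 95% interval −0.14 to 1.18, adjusted p = 0.275), so that neither a difference of 0 nor one more than 2-fold (the upper bound is 2.27-fold) lay outside the interval.

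**Figure D2:**
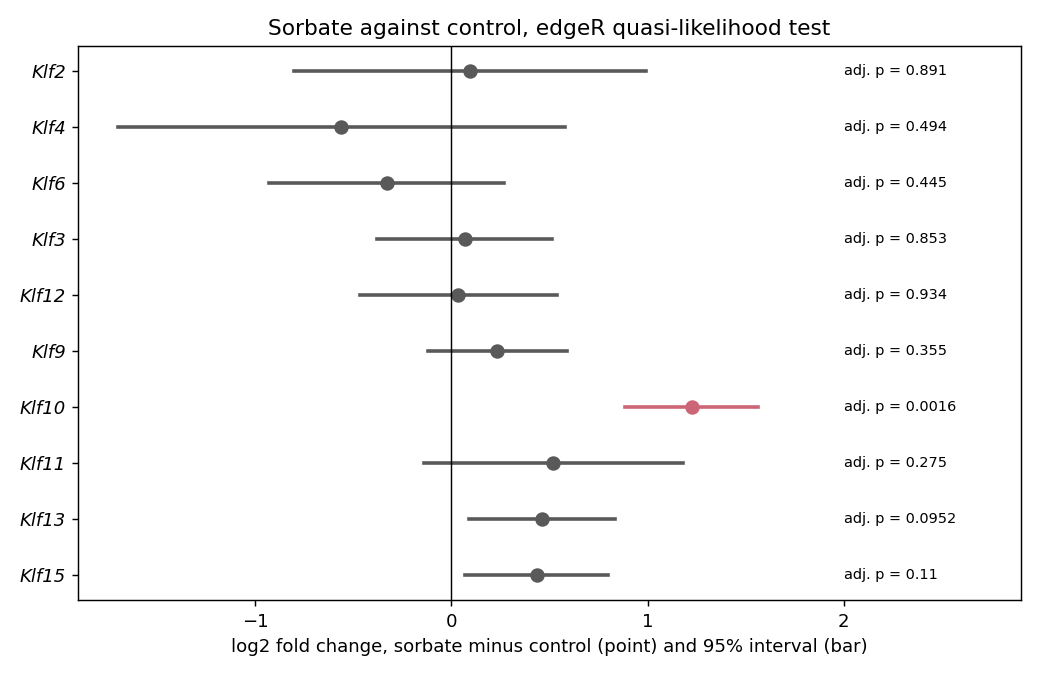
Points are log2 fold changes of sorbate against control for the 10 members and bars their 95% intervals, with adjusted p-values from edgeR at the right. The interval of Klf10 runs from 0.89 to 1.57, and those of Klf13 and Klf15 also lie above 0 but did not pass adjustment over all genes.

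Klf15 (chr6:90462576-90475238), the member with the 3 E-boxes shown above, encodes a regulator of amino acid breakdown and gluconeogenesis in liver. It stood at 109, 157, 146 and 98.8 CPM in the controls and 179, 152, 156 and 203 CPM with sorbate. Control 2 lay within the sorbate range, and the other controls lay below every sorbate library. Group means were 128 ± 28.0 CPM for control and 172 ± 23.7 CPM for sorbate (SD, n = 4; log2 fold change 0.43, SE 0.17, 95% interval 0.07 to 0.80, adjusted p = 0.110). Without control 2 the log2 fold change was 0.56 (SE 0.15) with adjusted p = 0.0186, and with the surrogate variable 0.23 with adjusted p = 0.501. Among the other 3 members with an E-box in the window, the log2 fold changes were 0.52 for Klf11, −0.33 for Klf6 and −0.56 for Klf4, and none of these passed the test.

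**Figure D3:**
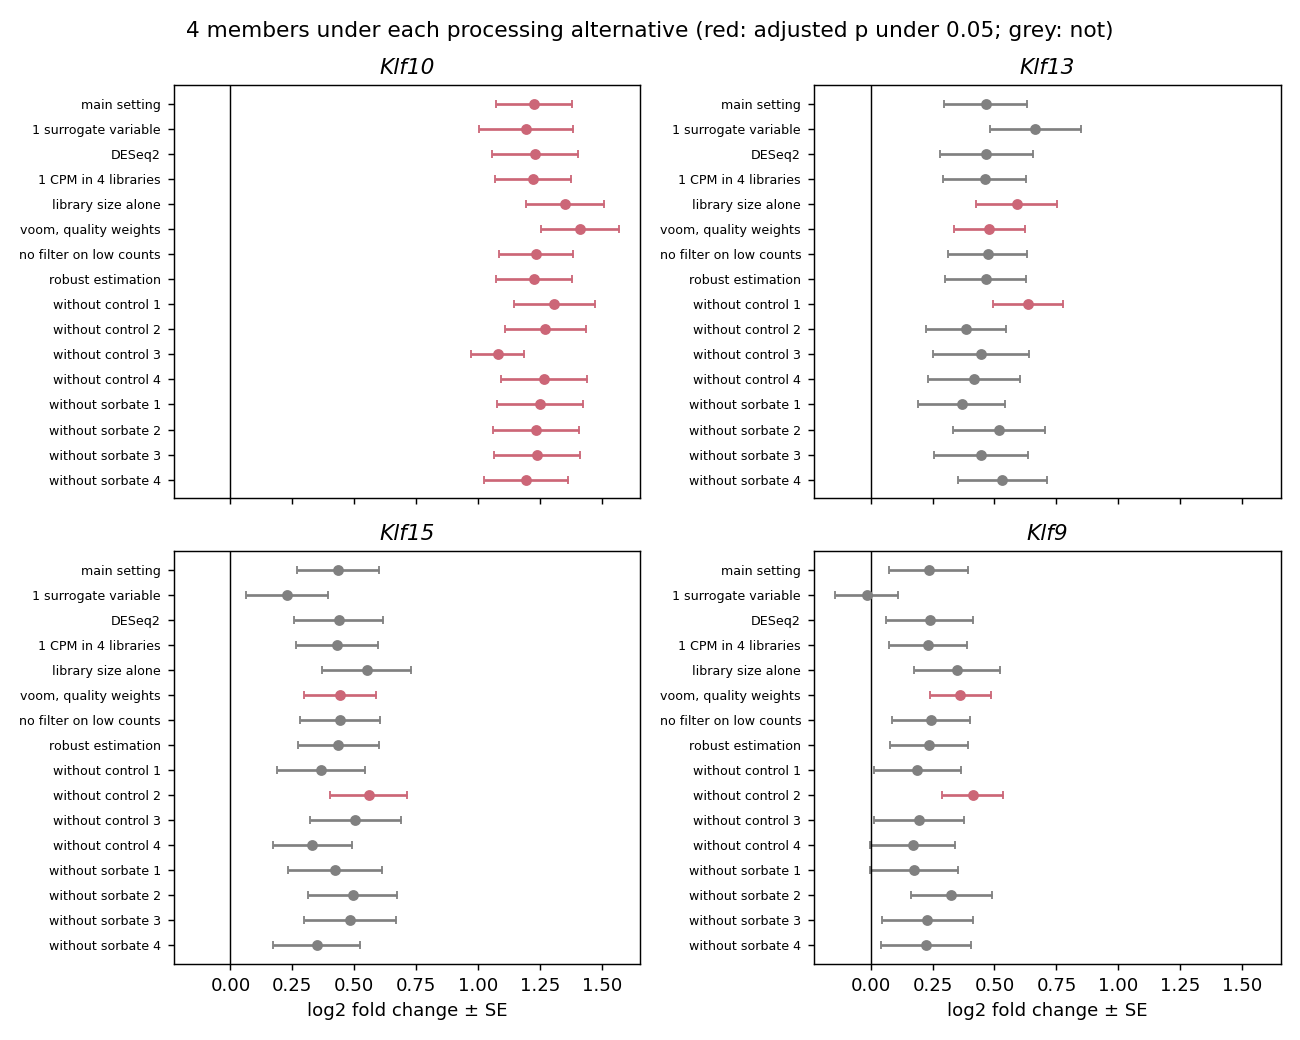
Log2 fold changes with standard errors for Klf10, Klf13, Klf15 and Klf9 under the main setting and each processing alternative, red where the adjusted p was under 0.05. Klf10 is red throughout, while Klf9 and Klf15 are red without control 2 and with sample quality weights, and Klf13 without control 1, with those weights and with library size alone.

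The CtBP-binding repressors showed means close to each other in the groups. Klf3 (chr5:64803388-64832901), a widely expressed repressor, stood at 45.2, 36.7, 64.9 and 42.5 CPM in the controls and 42.8, 45.7, 42.4 and 67.7 CPM with sorbate. In each group 1 library, control 3 and sorbate 4, was well above the rest. The log2 fold change was 0.07 (SE 0.20, 95% interval −0.38 to 0.51, adjusted p = 0.853), and it was −0.03 without control 2 and −0.11 without sorbate 4. The antisense transcript Gm20033 shares 404 exon bases with Klf3 (3.6% of its exons) and had 19 counts in all, against 7982 for Klf3. Klf12 (chr14:99870632-100284679), which represses through the same cofactor, stood at 18.3, 31.9, 22.5 and 14.4 CPM in the controls and 21.6, 18.4, 20.9 and 28.5 CPM with sorbate. Control 2 was the highest and control 4 the lowest of all 8 libraries. The log2 fold change was 0.04 (SE 0.23, 95% interval −0.47 to 0.54, adjusted p = 0.934), 0.29 without control 2 and −0.31 with the surrogate variable.

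None of the members of the activator subgroup passed the test. Per kilobase of merged exon in the controls, Klf4 was the lowest member at 0.304 CPM. Klf2 at 2.21 and Klf6 at 1.42 lay near Klf11 of the SIN3A-binding subgroup at 1.43. Klf6 (chr13:5861482-5870394), an early response factor of injured liver and stellate cells, stood at 6.62, 3.80, 8.61 and 5.90 CPM in the controls and 4.78, 6.18, 5.72 and 3.10 CPM with sorbate. Its lowest values were in control 2 and sorbate 4, and the groups overlapped (log2 fold change −0.33, SE 0.27, adjusted p = 0.445). Klf4 (chr4:55527143-55532466), a factor of endothelium, myeloid cells and epithelium, stood at 1.39, 0.223, 1.26 and 0.836 CPM in the controls and 0.486, 0.978, 0.732 and 0.304 CPM with sorbate, on only 131 counts in all. Control 2 with 4 counts and sorbate 4 with 5 counts were the lowest libraries. The log2 fold change of Klf4 was −0.56 (SE 0.51, 95% interval −1.70 to 0.58, adjusted p = 0.494), −0.86 without control 2 and 0.79 with the surrogate variable. The interval reaches down to a fold of 0.309, so a fall of more than 2-fold lies within it. Klf2 (chr8:72319033-72321656), an endothelial factor induced by blood flow, stood at 5.33, 2.07, 5.08 and 3.84 CPM in the controls and 1.98, 3.96, 5.12 and 6.57 CPM with sorbate. Its lowest values were in control 2 and sorbate 1, and the log2 fold change was 0.09 (SE 0.41, adjusted p = 0.891), turning to −0.12 without control 2 and −0.15 without sorbate 4.

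**Figure D4:**
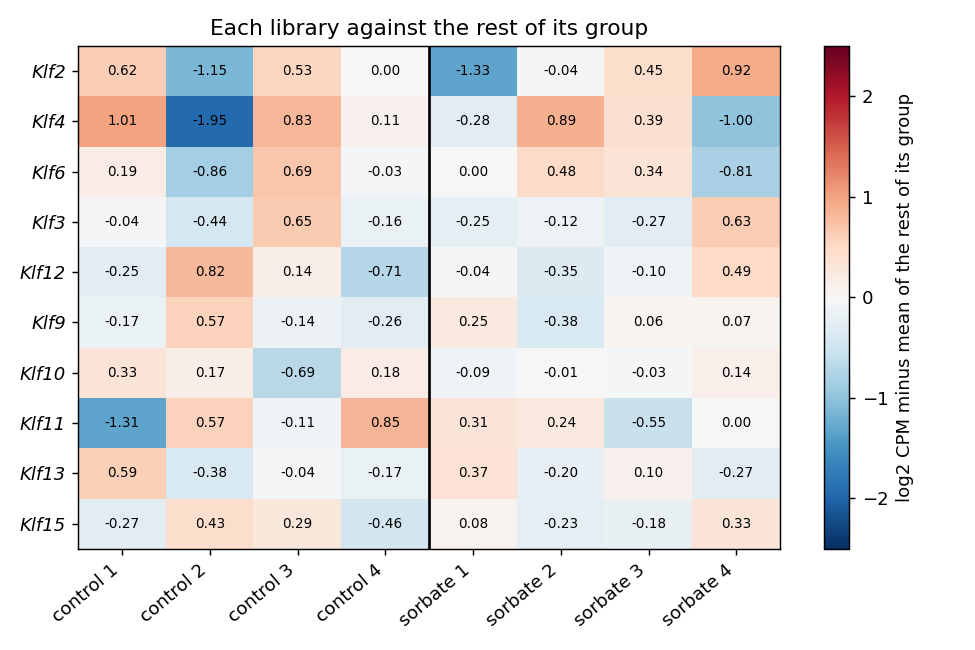
Each cell gives the log2 CPM of a member in 1 library minus the mean of the other 3 libraries of its group, red above and blue below. Control 2 is at −1.95 for Klf4, −1.15 for Klf2 and −0.86 for Klf6 but at 0.82 for Klf12 and 0.57 for Klf9, while Klf10 in control 2 is at 0.17.

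Since Klf2, Klf4 and Klf6 are known from non-parenchymal cells, markers of these cells are given beside them. Of 6 sinusoidal endothelial markers, 1 fell and 0 rose (Clec4g, log2 fold change −0.95, SE 0.25, adjusted p = 0.0329), with none at 0. The summed level of these 6 was 187 to 221 CPM in controls 1, 3 and 4, 101 CPM in control 2, and 113 to 134 CPM with sorbate. On all 8 libraries, DESeq2 called 1 of the 6 lower and limma-voom with sample quality weights 4, beside 9.34% and 14.6% of all tested genes. Without control 2, all 6 fell. With the surrogate variable, or without any 1 of the other 7 libraries, 0 were called. At those 2 kinds of setting, 2.26% and 2.64% to 4.23% of all tested genes were called lower, so 0 of 6 is near the background. Of 6 macrophage markers, 2 fell, Vsig4 (−1.04, SE 0.27) and Csf1r (−0.86, SE 0.24), and 0 rose, with none at 0. Their summed level was 219 to 292 CPM in controls 1, 3 and 4, 123 CPM in control 2, and 94.3 to 177 CPM with sorbate. Control 2, the control with the lowest Klf2, Klf4 and Klf6, was thus also the control with the lowest summed endothelial and macrophage markers, and sorbate 4, with the lowest Klf4 and Klf6 of its group, had the lowest macrophage markers. Klf2 did not share this, since it was highest of the 8 libraries in sorbate 4 at 6.57 CPM. Of the sorbate libraries, sorbate 1 had both the lowest Klf2 (1.98 CPM) and the lowest summed endothelial markers (113 CPM, beside 116 CPM in sorbate 4). Such matches are common by library, since 67.9% of all tested genes had an end value of their group in control 2 and 54.2% in sorbate 4. On all 8 libraries, DESeq2 and limma-voom with sample quality weights each called 5 of the 6 macrophage markers lower, beside the shares above. Without control 2, 5 of the 6 fell, and without sorbate 2, 2 fell. With the surrogate variable, or without any 1 of the other 6 libraries, 0 were called, beside the low shares given above for these settings. The part of these cells in the levels of the members was not tested, and in bulk tissue fewer cells of a type and less RNA per cell cannot be told apart. Of 6 stellate cell markers 0 were called, by edgeR, DESeq2 or limma-voom, and 0 had p under 0.05 before adjustment. Of 3 tested cholangiocyte markers, Sox9 fell (−1.59, SE 0.36, adjusted p = 0.0186), and the other 2 were positive and not called. Sox9 lost its call with the surrogate variable and without control 1, control 4, sorbate 3 or sorbate 4. S100a9, the 1 neutrophil marker tested, fell (−4.92, SE 0.98, adjusted p = 0.0112), with control 2 within the sorbate range. It was not called with the surrogate variable. Cd4, the 1 T cell marker tested, was not called (−0.035). Of 8 tested endothelial genes linked to KLF2 and KLF4, 0 rose and 1 fell, and 3 fell without control 2 or with DESeq2. With the surrogate variable, or without any 1 of the other 7 libraries, 0 were called. Thbd, which encodes thrombomodulin, fell from 5.83 ± 3.79 to 1.78 ± 0.534 CPM (SD, n = 4; log2 fold change −1.71, SE 0.48, adjusted p = 0.0423), with control 2 at 1.45 CPM, within the sorbate range.

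Levels between members were compared as CPM per kilobase of merged exon. In the controls Klf15 was highest at 45.7 ± 10.0 CPM per kb and Klf9 next at 26.2 ± 5.72, and their ranges over libraries did not overlap with each other or with the next member. Klf13 (5.14 ± 1.19), Klf3 (4.21 ± 1.09), Klf10 (3.40 ± 0.733), Klf12 (3.12 ± 1.08), Klf2 (2.21 ± 0.807), Klf11 (1.43 ± 0.618) and Klf6 (1.42 ± 0.452) followed in an order in which the ranges of neighbours overlapped. Klf4 was lowest at 0.304 ± 0.172 CPM per kb (SD, n = 4 in each case), below the range of Klf6. With sorbate Klf15 stood at 61.8 ± 8.5, Klf9 at 30.8 ± 4.11 and Klf10 at 7.96 ± 0.401 CPM per kb, so that Klf10 came to lie next to Klf13 (7.08 ± 1.10), with overlapping ranges. With the longest transcript in place of the merged exons, Klf3 came before Klf13 in the controls and between Klf10 and Klf13 with sorbate.

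**Figure D5:**
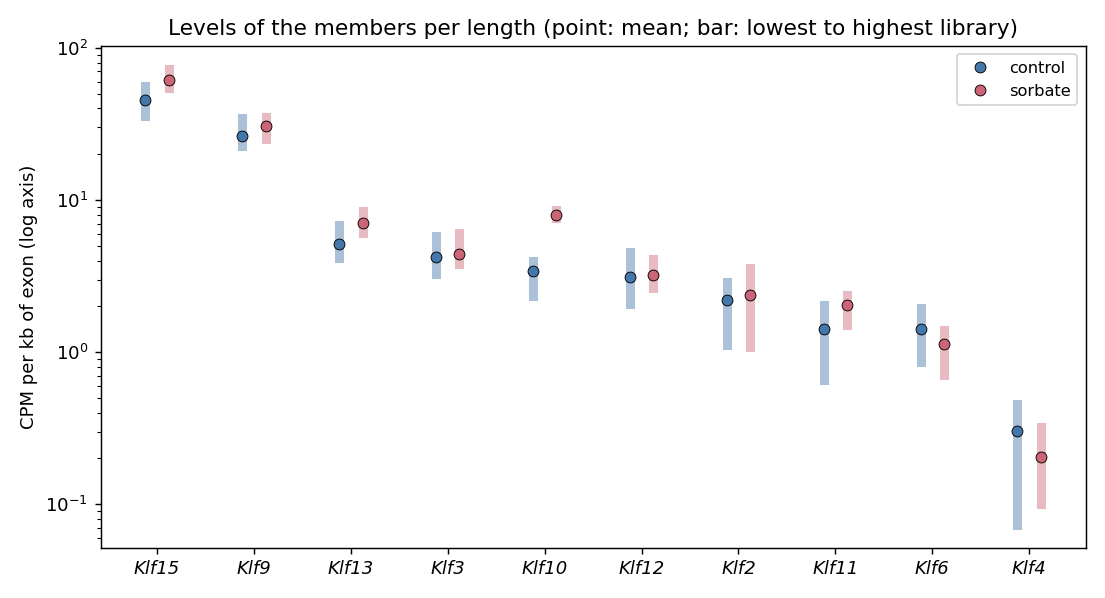
CPM per kb of merged exon for the 10 members on a log axis, points for group means and bars from the lowest to the highest library. Klf15 and Klf9 lie apart from the rest in both groups, and Klf10 moves from 3.40 to 7.96 CPM per kb.

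Among 16 other genes of the Krüppel-like and SP families, 8 were tested and 0 were called. Before adjustment 3 of these had p under 0.05. DESeq2 called 1, Sp5, and without control 2 edgeR called 3 higher, Klf1, Sp4 and Sp5. Sp5, a target of Wnt signalling, had a log2 fold change of 1.04 (SE 0.34, edgeR adjusted p = 0.0702) on 50 counts in the controls and 116 with sorbate. Klf1, the erythroid factor, had one of 0.81 (SE 0.31, edgeR adjusted p = 0.110) on 156 and 297 counts. Klf14, Klf17, Sp7, Sp8 and Sp9 had 0 counts in all 8 libraries, which allows up to 3 of the 166708060 counts summed (counting error only). Klf5, Klf8 and Sp6 had 38, 2 and 8 counts and were too low to test. Among 12 cofactors, corepressors and a ubiquitin ligase of Krüppel-like factors, 0 of 12 were called (edgeR; 4 with p under 0.05 before adjustment), while DESeq2 called Sin3a higher and edgeR without control 2 called 4 higher, where 15.1% of all tested genes were called higher. Sin3a, the corepressor that the Klf10 subgroup binds, stood at 19.2 ± 2.74 and 25.2 ± 2.35 CPM (SD, n = 4; log2 fold change 0.39, SE 0.12, edgeR adjusted p = 0.0636), and Hdac3 had a log2 fold change of 0.31 (SE 0.11, edgeR adjusted p = 0.0957).

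Genes of pathways known to act on Krüppel-like factors, or to lie downstream, are given here. On all 8 libraries, 6.14% of all tested genes were called higher and 6.3% lower. Of 19 core clock genes, 11 rose and 4 fell, among them Arntl, which encodes BMAL1 (log2 fold change −3.71, SE 0.22), Ciart (3.05, SE 0.32), Tef (2.01, SE 0.21) and Per2 (1.86, SE 0.16). Over the leave-outs, 9 to 11 rose and 3 to 4 fell. With the surrogate variable 10 rose and 3 fell, and with DESeq2 12 and 4. Arntl, Ciart, Tef and Per2 were called at each of these settings. No fit included the time of day of collection, and its part in the levels of the clock genes or Klf10 was not tested. Of 13 glucocorticoid-responsive genes, 0 rose and 4 fell, namely Lcn2 (−7.02, SE 1.03), Cdkn1a (−5.25, SE 0.74), Mt2 (−3.93, SE 1.03) and Mt1 (−3.38, SE 0.93). These 4 genes also respond to inflammatory or metal signals, and the receptor gene Nr3c1, named here after its value was seen, was not called (0.45, SE 0.19, adjusted p = 0.146), but was called higher without control 2 and with limma-voom quality weights. Without control 2, 1 of the 13 rose, Nr3c1, and 5 fell, Sgk1 being added. Mt1 and Mt2 lost their calls when any 1 of the other 7 libraries was left out, which left 2 lower, Cdkn1a and Lcn2, or 3 with Tsc22d3 without sorbate 4, and the surrogate variable also left Cdkn1a and Lcn2. DESeq2 called the same 4 lower and Per1 higher. Limma-voom with quality weights called 6 lower, adding Sgk1 and Tat to the 4, and 1 higher, Nr3c1. The summed level of the glucocorticoid list was 2201 CPM in control 2, 7250 to 8007 CPM in the other controls and 1535 to 2968 CPM with sorbate. Genes with high CPM weigh most in this sum. In control 1, at 8007 CPM, Tat held 2362, Lcn2 1666, Mt2 1639 and Mt1 1632 CPM. Of the 13 log2 fold changes, 4 were positive and 9 negative. On all 8 libraries edgeR did not call Fkbp5 (−0.24, adjusted p = 0.783), Tsc22d3 (−0.15, adjusted p = 0.832) or Per1 (0.83, adjusted p = 0.071). These were named after their values were seen.

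Of 11 genes of amino acid catabolism and gluconeogenesis, a pathway linked to KLF15, 4 rose and 0 fell. Hpd, an enzyme of tyrosine breakdown, stood at 1138 ± 125 CPM in control and rose to 2101 ± 145 CPM (SD, n = 4; log2 fold change 0.88, SE 0.14, adjusted p = 0.0039). The alanine aminotransferases Gpt and Gpt2 rose by 0.81 (SE 0.14) and 0.76 (SE 0.14) on the log2 scale and Prodh, which encodes proline dehydrogenase, by 0.66 (SE 0.16). The median of the 11 log2 fold changes was 0.55, beside −0.02 over all tested genes. The other 7 did not pass the test, and 1 of the 11 log2 fold changes was negative, that of Tat (−0.535, SE 0.235, adjusted p = 0.158). Limma-voom with quality weights called Tat lower, and both it and DESeq2 called Tdo2 higher. Without control 2, 5 rose, Tdo2 being added. Prodh was not called with the surrogate variable or without control 3, control 4 or any 1 sorbate library, which left Gpt, Gpt2 and Hpd. Of 11 tested TGF-beta signalling genes, 1 rose, the receptor gene Tgfbr2 (0.78, SE 0.19), and 1 fell, Skil, which encodes an inhibitor of SMAD proteins (−0.75, SE 0.13). Without control 2, 3 of these rose and 3 fell, and with the surrogate variable, or without control 3, control 4, sorbate 2 or sorbate 4, Skil alone was called. Of 7 genes of the MEK5-ERK5-MEF2 module, which induces Klf2 and Klf4 in endothelium, 1 rose, Map2k5 (0.45, SE 0.13, adjusted p = 0.0402), and 0 fell. Without control 2, 2 rose, and Map2k5 lost its call with the surrogate variable and without any 1 of the other libraries except sorbate 1. Of 9 tested immediate early genes, 0 were called, with 3 at p under 0.05 before adjustment in edgeR, among them Fos (1.31, SE 0.44, adjusted p = 0.0753) and Junb (−0.64, SE 0.23, adjusted p = 0.0925). DESeq2 called Fos higher and Junb lower, edgeR without control 2 called Fos higher and Btg2 and Junb lower, and edgeR without sorbate 1 called Fos higher. On all 8 libraries, 6.14% of all tested genes were called higher and 6.3% lower. The counts for the TGF-beta, MEK5-ERK5-MEF2 and immediate early genes are near these shares.

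The genes whose levels followed those of a member most closely were taken from 12029 tested genes by Pearson's r of log2 CPM over the 8 libraries, which share the group difference and are given as a description. For Klf10 these were Slc27a1 (r = 0.992), Mgrn1 (r = 0.985) and Dym (r = 0.983), and within groups, after removal of the group means, r was 0.936, 0.887 and 0.918. The genes were picked by r over these same libraries, so the r within groups is no separate check. Slc27a1, which encodes a fatty acid transport protein, had a control mean of 3.41 CPM and a sorbate mean of 6.57 CPM. For Klf13 they were Mpdu1 (r = 0.965), Chmp1a (r = 0.947) and Acsf3 (r = 0.938). For Klf15 they were Mga (r = 0.989), Pdpk1 (r = 0.983) and Ecpas (r = 0.982).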

How the data were processed

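Raw counts per gene, whole numbers of reads that the authors deposited without normalization as far as the values show, were used for 8 liver libraries. The submitters' processing notes name HISAT2 2.1.0, Subread, FastQC and edgeR, and GRCm38 as the build. How reads were counted, and with which strand setting, is not given in the sources used here, so reads of antisense partners may be mixed. Groups came from the treatment label. Replicate numbers follow accession order and pair nothing. In the table, 4 further sample columns matched no label and were not used.

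The whole table was filtered with filterByExpr (minimum count 10), scaled by TMM and fitted with edgeR 4.0.16 in R 4.3.3, by the quasi-likelihood test, two-sided, with Benjamini-Hochberg adjustment over 13312 genes. Standard errors came from the coefficient and the F statistic. Alternatives used DESeq2 1.42.0, limma 3.58.1 and sva 3.50.0. The code was tested on simulated data. Log2 CPM used a prior count of 2. List counts without each library and by other tools were added after seeing the data. Exon lengths and loci came from GENCODE vM21 on GRCm38.

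The members, lists and tests were chosen with earlier results of these data known. All members are named, and from each list up to 4 called genes with the lowest p, or at most 2 as values if none was called.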

Additional observations from a re-analysis of the deposited data

Results flagged for a closer look

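In groups of 4 libraries, a value was marked when its gap to the nearest other library was a larger share of the group's range than Dixon's 95% critical value allows, which chance gives in about 1 of 20 groups. Over 92 groups of the members and the named genes of the lists, 8 values were marked. Klf9 stood at 167 CPM in control 2, with the other controls at 108 to 116 CPM. Klf3 stood at 67.7 CPM in sorbate 4, with the other sorbate libraries at 42.4 to 45.7 CPM. The other marks were Sp5 at 0.387 CPM in control 3 (the others 0.697 to 0.738), Tef at 194 CPM in sorbate 2 (233 to 240), Mt2 at 10.6 CPM in control 2 (1475 to 1686), Thbd at 2.58 CPM in sorbate 2 (1.42 to 1.58), Reln, a stellate cell marker, at 23.1 CPM in control 2 (27.1 to 27.4) and S100a9, a neutrophil marker, at 0.622 CPM in sorbate 2 (0.0747 to 0.122).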

How the results depend on the processing

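Klf10 was higher in all 16 alternatives run for it, with log2 fold changes from 1.08 to 1.41. In 1 of these, the exact permutation test, p was 0.0286 without adjustment. In all the others Klf10 was called at an adjusted p under 0.05. The count of members called higher, 1, was 2 at an adjusted p threshold of 0.1, 2 with library size alone, 4 with limma-voom and sample quality weights (where 14.8% of all tested genes were called higher), and 1 to 3 over the leave-outs. The count of genes called, 1656, was 624 with a surrogate variable, 2751 at the threshold of 0.1, 3912 with quality weights (DESeq2: 1212 higher and 1244 lower), and 689 without control 3 to 3968 without control 2. Calls gained were Klf9 and Klf15 without control 2 and with quality weights, and Klf13 without control 1, with quality weights and with library size alone. Directions turned, always without a call, for Klf12 (−0.31 with the surrogate variable, −0.12 to 0.29 over the leave-outs), Klf2 (−0.30 with quality weights, −0.15 to 0.35 over the leave-outs), Klf3 (−0.13 with quality weights, −0.11 to 0.26 over the leave-outs), and, with the surrogate variable, for Klf4 (0.79), Klf6 (0.11) and Klf9 (−0.016). The causes were not tested. With the longest transcript as length, levels moved by more than the SD for Klf3 (9.06 in controls and 9.51 CPM per kb with sorbate), Klf10 (4.67 and 10.9) and Klf13 with sorbate (8.34). Klf4 had no value under the filter of 1 CPM in 4 libraries. No paired analysis was possible because replicate numbers only follow accession order and the labels pair no samples. Counting error limits Klf4, Klf2, Klf6 and Klf11 most, with 131, 689, 942 and 1273 counts in all.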

Other observations

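Klf1, the factor of red cell precursors, stood at 1.28 to 2.96 CPM in the 4 controls and 2.45 to 5.23 CPM in the 4 sorbate libraries, without a call by edgeR on the 8 libraries but called higher by edgeR without control 2. Of 5 red cell markers 4 fell. These were the globin genes Hbb-bt (log2 fold change −2.18, SE 0.45), Hbb-bs (−2.12, SE 0.46), Hba-a2 (−1.95, SE 0.50) and Hba-a1 (−1.88, SE 0.49), close paralogs that may share reads. With the surrogate variable 0 of the 5 were called. Leaving out 1 library left Hbb-bt alone lower without sorbate 1 or sorbate 4, 2 lower without control 3, control 4 or sorbate 3, and 3 without sorbate 2. Alas2, the erythroid enzyme of heme synthesis, was not called by edgeR (0.37, SE 0.13, adjusted p = 0.0795) but was called higher by DESeq2 and by edgeR without control 2.

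Sorbate 4 held the highest or lowest value of its group for 8 of the 10 Krüppel-like factors, as control 2 did in its group, and 54.2% of all tested genes had an end value in sorbate 4. It was the library with the fewest counts, 15773932.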
